A study of Rattus norvegicus with 16 samples.

Results

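The 68 gene symbols examined here belong to the mitochondrial ribosomal protein family, found as every symbol of the form Mrpl or Mrps with a number and at most 1 letter among the 17001 gene symbols of a rat frontal cortex expression table. They stood at 74 loci, and where a symbol had several loci (6 symbols) the locus with the highest mean over all samples was taken. Of the 68 genes, 66 (97.1%) reached the level used for testing, a mean of at least 1 FPKM (a fragment count normalised for transcript length and for the size of the library). Mrpl30 and Mrpl36 did not: Mrpl36 was listed at 0 in all 16 libraries, and Mrpl30 in all but chow 1 and HF_5AzaD 3, at 0.0285 and 0.0389 FPKM. Most of the 66 had higher mean levels in rats that had received injections than in rats that had not, whether the injection held the DNA methylation inhibitor 5-AzaD or only its vehicle, and 32 rose past the test in at least 1 such comparison, where 17.9% of all loci tested did. Most calls in the vehicle group were lost when libraries high in striatal or myelin markers were left out, which left few libraries in that group. Few of all loci rose in that group in these fits either, while the family's median differences stayed above 0, as given with the counts. These medians rest on HF_PBS 1 alone or on HF_PBS 1 and 2. They do not show how the whole group would stand, and the family was high in HF_PBS 1. The calls in the inhibitor group moved as well. Leaving out 1 library at a time gave 3 to 24 calls against the uninjected high fat group, where 18 were called with all libraries. Against chow it gave 3 to 15, where 9 were called. The shares of all loci in these fits are not given here. No gene of the family differed past the test with the diet alone, or between inhibitor and vehicle.

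The mitochondrial ribosome makes the few proteins encoded in mitochondrial DNA, which are core subunits of the respiratory chain and of ATP synthase. Its RNA comes from the mitochondrial genome, but all of its proteins are encoded in the nucleus, made in the cytosol and imported. Some are homologues of bacterial ribosomal proteins and others are found only in mitochondria. Neurons depend heavily on oxidative phosphorylation, whose complexes are built from nuclear and mitochondrial gene products.

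The animals were male Sprague-Dawley rats aged 11 weeks when a 7-week diet began. Group chow ate chow, group HF ate a high fat diet, group HF_PBS ate the high fat diet and was injected intraperitoneally with phosphate-buffered saline on 10 days, and group HF_5AzaD ate that diet and was given 5-AzaD in the same vehicle for as many days. 5-AzaD is a cytidine analogue that blocks DNA methyltransferases. Each group has 4 libraries of poly-A RNA, named here by group and title number. No injected group ate chow, so the effect of injection was measured only on the high fat diet. The letters HFD mean the diet in the series' design text but mark the vehicle group in the sample titles; the groups follow the treatment stated for each sample. The labels do not say that the libraries came from separate animals, so p-values measure the spread between these libraries only. No library or sequencing batch is given, and a batch that followed injection cannot be told apart from it.

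Read totals are not in the table. The relative depth, read from the smallest values of rare transcripts, was 38.7% to 100% of the deepest library in chow and 30.1% to 44.6% in the other groups. The defining markers of neurons, astrocytes, oligodendrocytes, microglia and endothelium were above 0 in all 16 libraries. The summed level of 6 striatal markers was 612 to 1088 FPKM in HF 8 and HF_PBS 2, 3 and 4, against 165 to 323 FPKM in the other 12 libraries. The summed level of 6 myelin markers was 11885 and 12913 FPKM in HF_PBS 3 and 4, against 2123 to 6747 FPKM elsewhere. In bulk tissue, fewer cells of a type and less RNA per cell cannot be told apart.

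Most of the 66 tested genes were expressed at moderate levels, with a 48.1-fold span from the lowest to the highest mean. Their median over the 16 libraries was 28.4 FPKM, against 9.38 FPKM for the 14824 loci tested, and 63 of the 66 lay above that median. A level of 10 to 60 FPKM was found for 54 genes, 8 were above 60 FPKM and 4 were below 10 FPKM. The highest means were those of Mrps28 (74.6 FPKM, at a locus the table shares with Tpd52), Mrpl27 (74.3 FPKM) and Mrpl20 (70.9 FPKM). The lowest were those of Mrpl1 (1.55 FPKM), Mrpl40 (3.24 FPKM) and Mrpl47 (5.98 FPKM). The 24 small-subunit genes had a median of 28.9 FPKM and the 41 large-subunit genes one of 28.1 FPKM, so neither subunit's genes stood above the other's. Mrps36 was counted with neither, because its protein is now known as a component of the oxoglutarate dehydrogenase complex of the citric acid cycle. Mrps18a and Mrps30 were counted with the large subunit, where their proteins lie in spite of their names. Mrps34, Mrps18c, Mrps28 and Mrpl2 share their locus with another gene, so that their values may include reads of that gene.

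The diet alone was compared first. Between HF and chow, 0 of the 66 genes passed limma's test at an adjusted p under 0.05, where 0% of all loci tested passed. The median log2 difference over the 66 genes was -0.09, beside -0.01 over all loci tested, and 56 of 66 genes were lower in HF. At an unadjusted p under 0.05 there were 5 such genes, among 1020 of all loci, and the lowest adjusted p of the family was 0.682 (limma). The HF libraries all lay below the chow libraries for 4 genes, where 3.97% of all loci did so, and above them for 0 genes, where 2.98% of all loci did so.

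Mrpl45, whose protein anchors the ribosome to the inner membrane, had the lowest p of the genes that were lower in HF. It was at 18.9, 16.7, 19.7 and 14.4 FPKM in chow and at 13.3, 13.8, 15.9 and 13.9 FPKM in HF, so the groups overlapped through chow 4. The log2 difference was -0.28 (SE 0.0972, limma adjusted p = 0.682). Mrpl22, a protein of the wall of the exit tunnel, was at 20.6, 18.3, 18.7 and 18.7 FPKM in chow and at 14.4, 11.8, 16.1 and 17.3 FPKM in HF, with no overlap. Its log2 difference of -0.36 also missed the test (SE 0.140, limma adjusted p = 0.696), as did that of Mrpl41 (-0.23, limma adjusted p = 0.696). The genes that were higher in HF with the lowest p were Mrps25, Mrps10 and Mrpl27, with log2 differences of 0.16, 0.16 and 0.11 and limma adjusted p-values of 0.814, 0.836 and 0.870. The 95% intervals of single genes reached a median of 0.26 to either side of the log2 difference, so differences of this size were not resolved.

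The inhibitor was then compared with its vehicle. Between HF_5AzaD and HF_PBS, 0 of the 66 genes passed limma's test, again beside 0% of all loci. The median log2 difference was -0.02 over the family and 0.01 over all loci tested, and 25 of the 66 genes were higher with the inhibitor. Only Mrps28 had an unadjusted p under 0.05, among 1100 of all loci, with a log2 difference of -0.25 (SE 0.109, 95% interval -0.48 to -0.02, limma adjusted p = 0.651). Its locus is shared with Tpd52. The libraries of these groups overlapped for all 66 genes, where 1.46% of all loci were apart in the higher and 0.938% in the lower direction. Mrpl41 and Mrpl52 followed Mrps28 in the lower direction with log2 differences of -0.18 and -0.25, and Mrps27, Mrpl43 and Mrpl17 led the higher direction with 0.15, 0.17 and 0.09. Their limma adjusted p-values lay between 0.692 and 0.867. The groups also differed in tissue markers. All 6 striatal and all 6 myelin markers had log2 differences below 0, with medians of -1.87 and -0.97, and none passed limma's test. The part of these markers in the family's differences was not tested. A p that misses the threshold does not show that inhibitor and vehicle act alike: for Mrps21, for example, the 95% interval of the difference ran from -0.39 to 0.27 on the log2 scale.

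**Figure D1:**
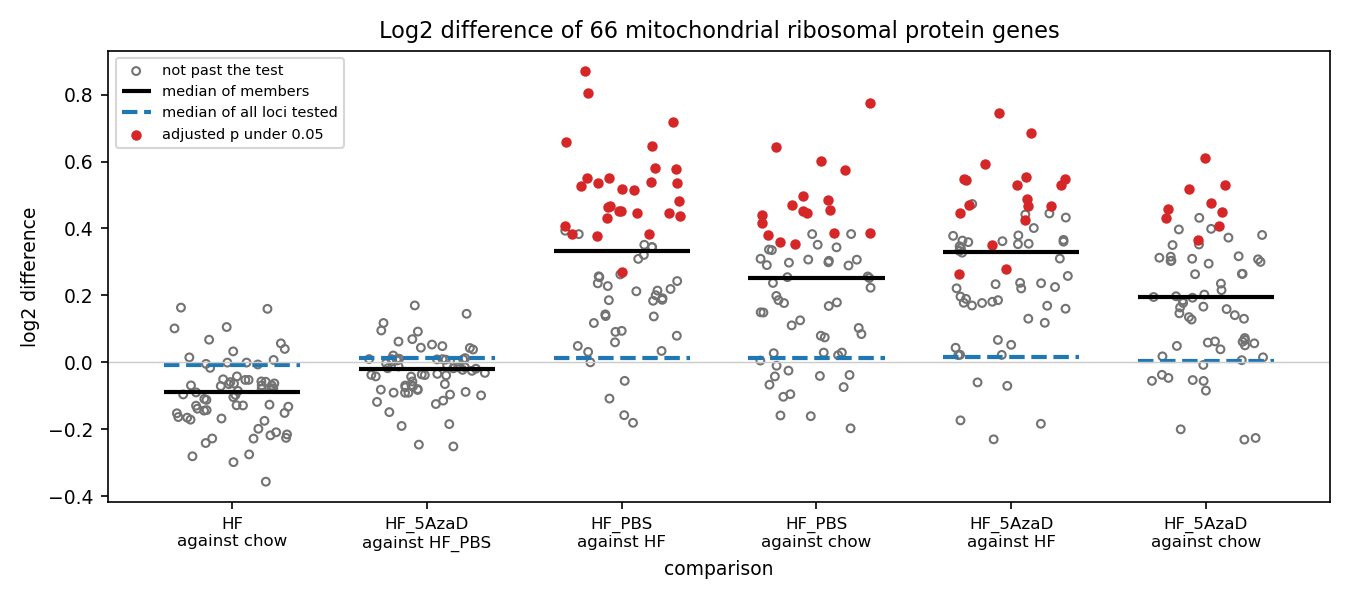
Log2 difference of each of the 66 genes (points) in the 6 comparisons, from limma on log2(FPKM + 0.5). Red points passed at an adjusted p under 0.05, black lines are the median of the 66 genes and dashed blue lines the median of all loci tested. The medians lie at -0.09 and -0.02 in the first 2 comparisons and between 0.19 and 0.33 in the 4 comparisons of an injected with an uninjected group.

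Injected groups differed from uninjected groups. Against HF, 29 of the 66 genes rose in HF_PBS and 0 fell, where 10.7% of all loci tested rose and 13.2% fell. In HF_5AzaD 18 rose over HF and 0 fell, where 6.61% of all loci rose and 7.64% fell. Against chow, 17 genes rose in HF_PBS and 0 fell, where 12.4% of all loci rose and 15.7% fell. In HF_5AzaD 9 rose over chow and 0 fell, where 7.18% of all loci rose and 9.11% fell. The median log2 difference of the 66 genes was 0.33, 0.33, 0.25 and 0.19 for HF_PBS and HF_5AzaD against HF and for HF_PBS and HF_5AzaD against chow, beside 0.00 to 0.02 over all loci tested. These comparisons share their control and treated libraries in pairs and are not independent of each other. All differences are on the log2(FPKM + 0.5) scale, which understates the change of low genes.

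Counting genes whose 4 libraries in each group did not overlap gave a like picture. HF_PBS lay wholly above HF for 29 genes and below it for 1, where 9.28% and 11.9% of all loci did so. HF_5AzaD lay wholly above HF for 21 genes and below it for 1, where 8.97% and 8.78% of all loci did so. Over chow, HF_PBS was wholly higher for 18 genes and lower for 0 (14.2% and 19.1% of all loci), and HF_5AzaD was higher for 17 and lower for 1 (12.3% and 14.8% of all loci). The family's counts were above the share of all loci in the higher direction and below it in the lower.

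Over the 4 comparisons, 32 genes rose in at least 1 (17.9% of all loci did), 34 in none, and 6 in all 4 (2.87% of all loci did). The 6 were Mrps21, Mrpl41, Mrpl53, Mrpl23, Mrpl32 and Mrps30. All 8 injected libraries lay above all 8 uninjected libraries for 8 genes, where 2.92% of all loci did so, and below them for 0 genes, where 5.05% of all loci did so. The 8 genes were Mrpl23, Mrpl32, Mrpl35, Mrpl41, Mrpl54, Mrps7, Mrps17 and Mrps21.

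Mrpl41, a mitochondria-specific protein of the large subunit that was also described as a binding partner of the apoptosis regulator Bcl-2, showed the largest difference. It was at 33.3, 38.8, 35.2 and 33.1 FPKM in chow, at 30.3, 29.2, 27.7 and 32.5 FPKM in HF, at 57.9, 51.0, 50.4 and 61.5 FPKM in HF_PBS and at 48.3, 48.4, 43.2 and 54.1 FPKM in HF_5AzaD. Every injected library was above every uninjected library. The rise from HF to HF_PBS was 0.87 on the log2 scale (SE 0.0917, limma adjusted p = 0.000729), from means of 29.9 ± 2.01 to 55.2 ± 5.42 FPKM (SD, n = 4 libraries). From HF to HF_5AzaD it was 0.69 (limma adjusted p = 0.00286), and against chow 0.64 in HF_PBS and 0.46 in HF_5AzaD (limma adjusted p = 0.00211 and 0.0111).

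Mrps21, the small-subunit homologue of bacterial protein S21, was at 53.3, 50.6, 49.1 and 39.0 FPKM in chow and at 45.8, 37.3, 41.0 and 39.0 FPKM in HF. It was at 67.3, 58.2, 70.1 and 94.0 FPKM in HF_PBS and at 77.1, 55.9, 61.6 and 82.9 FPKM in HF_5AzaD. HF_PBS 4 and HF_5AzaD 7 were highest in their groups, and the lowest injected library was still above chow 1. Against HF the log2 difference was 0.80 in HF_PBS (SE 0.155, limma adjusted p = 0.00426) and 0.75 in HF_5AzaD (limma adjusted p = 0.0126). Against chow it was 0.58 and 0.52 (limma adjusted p = 0.0162 and 0.0381). The HF_PBS call against chow was lost without chow 4 (adjusted p = 0.0524) or without HF_PBS 4 (adjusted p = 0.0581), and the HF_5AzaD call against chow was lost when any 1 of the chow libraries, HF_5AzaD 3 or HF_5AzaD 7 was left out (limma adjusted p = 0.0518 to 0.132).

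Mrpl23 lies at the mouth of the exit tunnel, where the nascent chain leaves the ribosome. It was at 35.8, 36.2, 33.1 and 32.2 FPKM in chow, at 37.1, 35.8, 34.0 and 37.0 FPKM in HF, at 46.3, 46.3, 56.6 and 61.8 FPKM in HF_PBS and at 47.5, 57.9, 42.4 and 65.6 FPKM in HF_5AzaD. The uninjected libraries were tightly grouped, with a range of 32.2 to 37.1 FPKM, and the injected ones spread over 42.4 to 65.6 FPKM. The log2 difference was 0.60 from chow to HF_PBS (SE 0.127, limma adjusted p = 0.00558) and 0.61 from chow to HF_5AzaD (limma adjusted p = 0.0123).

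Mrpl32 is cleaved by the inner-membrane m-AAA protease before it joins the large subunit. It was at 15.8, 15.4, 15.6 and 13.4 FPKM in chow and at 14.7, 13.6, 13.5 and 15.4 FPKM in HF, and at 22.4, 18.6, 18.6 and 24.0 FPKM in HF_PBS and 21.2, 18.6, 21.6 and 23.1 FPKM in HF_5AzaD. No injected library fell within the uninjected range. The log2 difference from HF was 0.53 in HF_PBS (SE 0.0991, limma adjusted p = 0.00398) and 0.55 in HF_5AzaD (limma adjusted p = 0.00784).

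Mrpl53 and Mrps30, mitochondria-specific proteins of the large subunit, rose in all 4 comparisons with some overlap of libraries. Mrpl53 was at 58.7, 53.8, 56.8 and 46.8 FPKM in chow, 47.6, 45.9, 52.9 and 46.0 FPKM in HF, 69.4, 57.9, 68.1 and 90.6 FPKM in HF_PBS and 82.7, 60.5, 69.2 and 80.7 FPKM in HF_5AzaD. HF_PBS 2 was below chow 1, and all other injected libraries were above it. Its log2 difference from HF was 0.55 in HF_PBS (limma adjusted p = 0.0103) and 0.59 in HF_5AzaD (limma adjusted p = 0.0154); the second was lost without HF 6 (adjusted p = 0.0532) or HF_5AzaD 7 (adjusted p = 0.0566). Mrps30 was at 28.1, 22.3, 21.4 and 21.0 FPKM in chow, 23.8, 20.7, 21.1 and 22.6 FPKM in HF, 36.4, 28.5, 27.0 and 35.7 FPKM in HF_PBS and 35.8, 26.3, 28.3 and 33.4 FPKM in HF_5AzaD. Here chow 1 stood above the other chow libraries and above HF_PBS 3 and HF_5AzaD 5. The log2 difference from HF was 0.51 in HF_PBS and 0.47 in HF_5AzaD (limma adjusted p = 0.0120 and 0.0272).

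**Figure D2:**
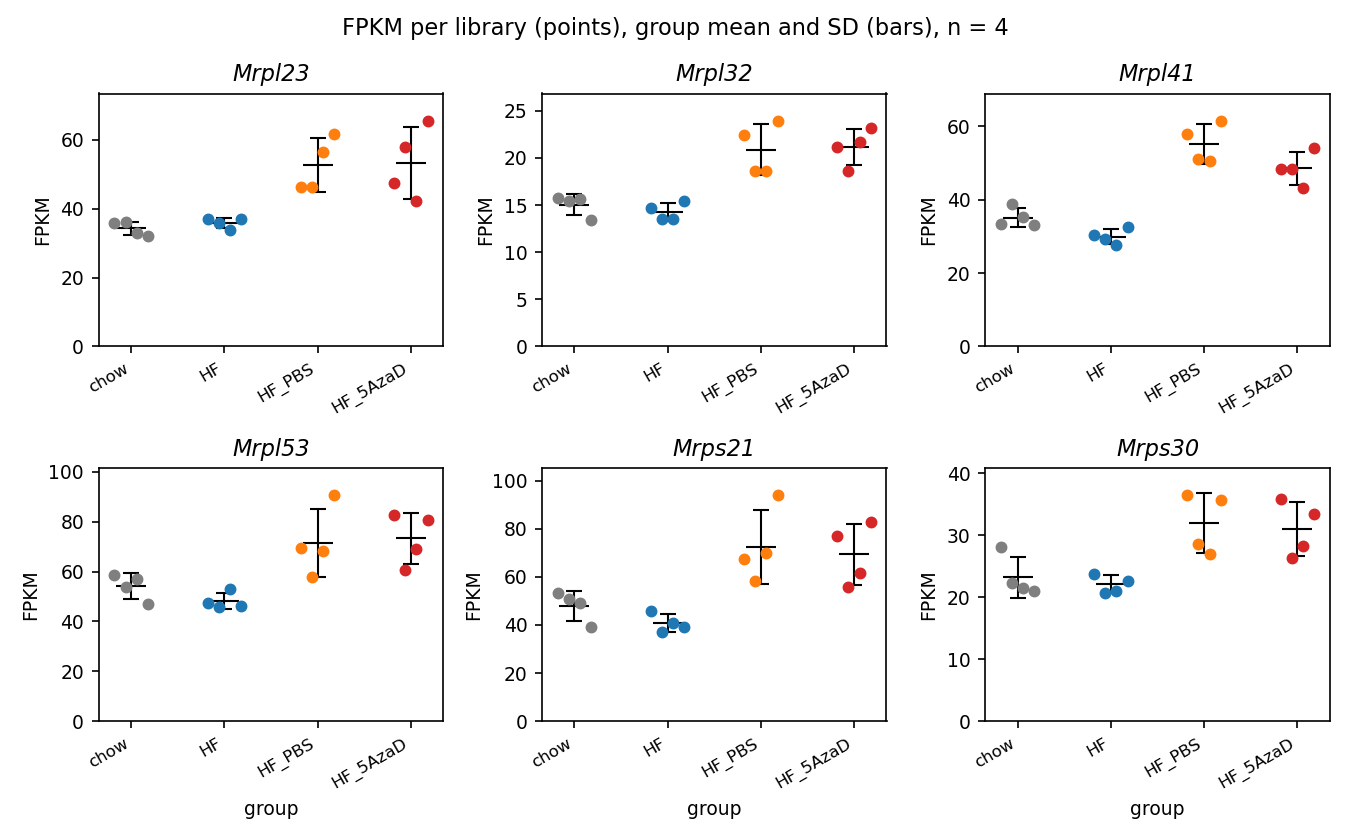
FPKM of the 6 genes that rose in all 4 comparisons of an injected with an uninjected group, by library (points), with the group mean and SD (bars, n = 4 libraries); each vertical axis starts at 0. For Mrpl23, Mrpl32, Mrpl41 and Mrps21 the lowest injected point is above the highest uninjected point, and for Mrpl53 and Mrps30 the ranges overlap.

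Among the other genes with large differences, Mrpl52 was at 21.5, 22.6, 21.1 and 19.0 FPKM in chow, 22.5, 17.0, 26.9 and 22.2 FPKM in HF, 29.8, 32.9, 39.0 and 45.5 FPKM in HF_PBS and 25.1, 30.1, 27.6 and 41.7 FPKM in HF_5AzaD. HF_PBS was above both uninjected groups in every library, by 0.78 over chow and 0.72 over HF on the log2 scale (limma adjusted p = 0.00615 and 0.00928), and HF_5AzaD was 0.53 above chow (limma adjusted p = 0.0457). That last call was lost without any 1 of the chow libraries, HF_5AzaD 5 or HF_5AzaD 7 (limma adjusted p = 0.0711 to 0.155). Mrpl13, the homologue of bacterial L13, averaged 38.6 ± 3.79, 34.7 ± 3.64, 54.8 ± 7.96 and 51.5 ± 10.1 FPKM (SD, n = 4 libraries) in chow, HF, HF_PBS and HF_5AzaD. It rose from HF by 0.65 in HF_PBS and by 0.55 in HF_5AzaD, and from chow by 0.50 in HF_PBS (limma adjusted p = 0.00642, 0.0228 and 0.0191). The HF_5AzaD call of Mrpl13 was lost without HF 6, HF 8, HF_5AzaD 3 or HF_5AzaD 7 (limma adjusted p = 0.0541 to 0.0825), and its HF_PBS call against chow without chow 4 or HF_PBS 4 (adjusted p = 0.0594 and 0.0699). Mrpl22, the gene with the lowest difference between HF and chow, rose from HF by 0.58 in HF_PBS and 0.55 in HF_5AzaD (limma adjusted p = 0.0109 and 0.0226), while against chow its differences of 0.22 and 0.20 did not pass. The HF_5AzaD call of Mrpl22 was lost without HF 6, HF_5AzaD 3 or HF_5AzaD 7 (limma adjusted p = 0.0571 to 0.0813).

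Mrps36, the oxoglutarate dehydrogenase component, was at 32.0, 27.7, 27.8 and 23.1 FPKM in chow, 22.6, 20.6, 23.3 and 24.0 FPKM in HF, 39.9, 33.7, 31.3 and 39.8 FPKM in HF_PBS and 41.0, 23.7, 31.1 and 32.4 FPKM in HF_5AzaD. HF_PBS lay above HF in every library, and HF_5AzaD 5 lay within the HF range. The rise from HF was 0.66 in HF_PBS (SE 0.144, limma adjusted p = 0.00678) and 0.47 in HF_5AzaD (limma adjusted p = 0.0434), and neither difference from chow passed.

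Genes of both subunits rose. Of the 24 small-subunit genes, 12 rose from HF to HF_PBS, 5 from HF to HF_5AzaD, 8 from chow to HF_PBS and 3 from chow to HF_5AzaD. Of the 41 large-subunit genes, 16, 12, 9 and 6 rose in the same order, and of all loci 10.7%, 6.61%, 12.4% and 7.18%, so that the smallest of these counts lie not far from the share of all loci. The median log2 difference from HF to HF_PBS was 0.36 for the small and 0.26 for the large subunit, and from HF to HF_5AzaD it was 0.34 and 0.24. Split by origin, the 37 genes counted as homologues of bacterial proteins had medians of 0.32 and 0.33 in these comparisons. The 29 counted as mitochondria-specific had medians of 0.34 and 0.31. The 29 include Mrps36, and also Mrps18a and Mrps18b, although their paralog Mrps18c was counted with the bacterial homologues. No difference between subunits or origins was tested.

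The functional centres of the ribosome were represented by genes fixed for their role, most of which did not pass. Mrps12, a protein of the decoding centre, averaged 29.2 ± 2.02, 27.7 ± 3.49, 32.7 ± 5.12 and 32.8 ± 4.20 FPKM (SD, n = 4 libraries) in chow, HF, HF_PBS and HF_5AzaD, with log2 differences of 0.15 to 0.24 between injected and uninjected groups (limma adjusted p = 0.193 to 0.371). Mrpl10 and Mrpl12, which form the stalk that binds translation factors, differed by 0.02 to 0.18 and by 0.01 to 0.20 (limma adjusted p = 0.157 to 0.893 and 0.150 to 0.968). The membrane anchor Mrpl45 was higher in the injected groups than in HF by 0.19 and 0.20 but lower than in chow by 0.10 and 0.08, and none of these passed. The 3 Mrps18 paralogs gave different values. Mrps18c, at a locus shared with Agpat9, rose in HF_PBS by 0.54 over HF and 0.47 over chow (limma adjusted p = 0.0206 and 0.0323). Mrps18b rose by 0.38 over HF in HF_PBS (limma adjusted p = 0.0441) and in no other comparison. Mrps18a, whose protein lies in the large subunit, differed by -0.04 to 0.08 and did not pass in any (limma adjusted p = 0.595 to 0.869). Whether the paralogs differ from each other was not tested.

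Some genes stood at or below 0. From HF to HF_PBS, 5 of the 66 genes were not higher, and Mrpl14, Mrpl49, Mrpl51 and Mrpl3 had the lowest differences, at -0.18, -0.16, -0.11 and -0.06; these genes were singled out after their values were seen. Mrpl14, which binds the assembly factor encoded by Malsu1, was at 48.0, 44.3, 50.2 and 48.8 FPKM in chow, 50.6, 48.2, 47.9 and 42.6 FPKM in HF, 46.0, 42.4, 37.6 and 41.0 FPKM in HF_PBS and 44.1, 37.6, 44.5 and 40.3 FPKM in HF_5AzaD. The injected libraries were mostly lower but overlapped both uninjected groups, and no difference passed (limma adjusted p = 0.0890 to 0.146). Mrpl14 has a further locus, whose means were 25.4 ± 1.73, 25.0 ± 3.20, 29.8 ± 7.29 and 30.1 ± 4.46 FPKM (SD, n = 4 libraries) in chow, HF, HF_PBS and HF_5AzaD. There the injected groups had the higher means, so the direction of Mrpl14 depends on the locus taken. Mrpl49 was lower in every HF_PBS and HF_5AzaD library than in every HF library, with log2 differences of -0.16 and -0.23 that did not pass (limma adjusted p = 0.274 and 0.135).

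**Figure D3:**
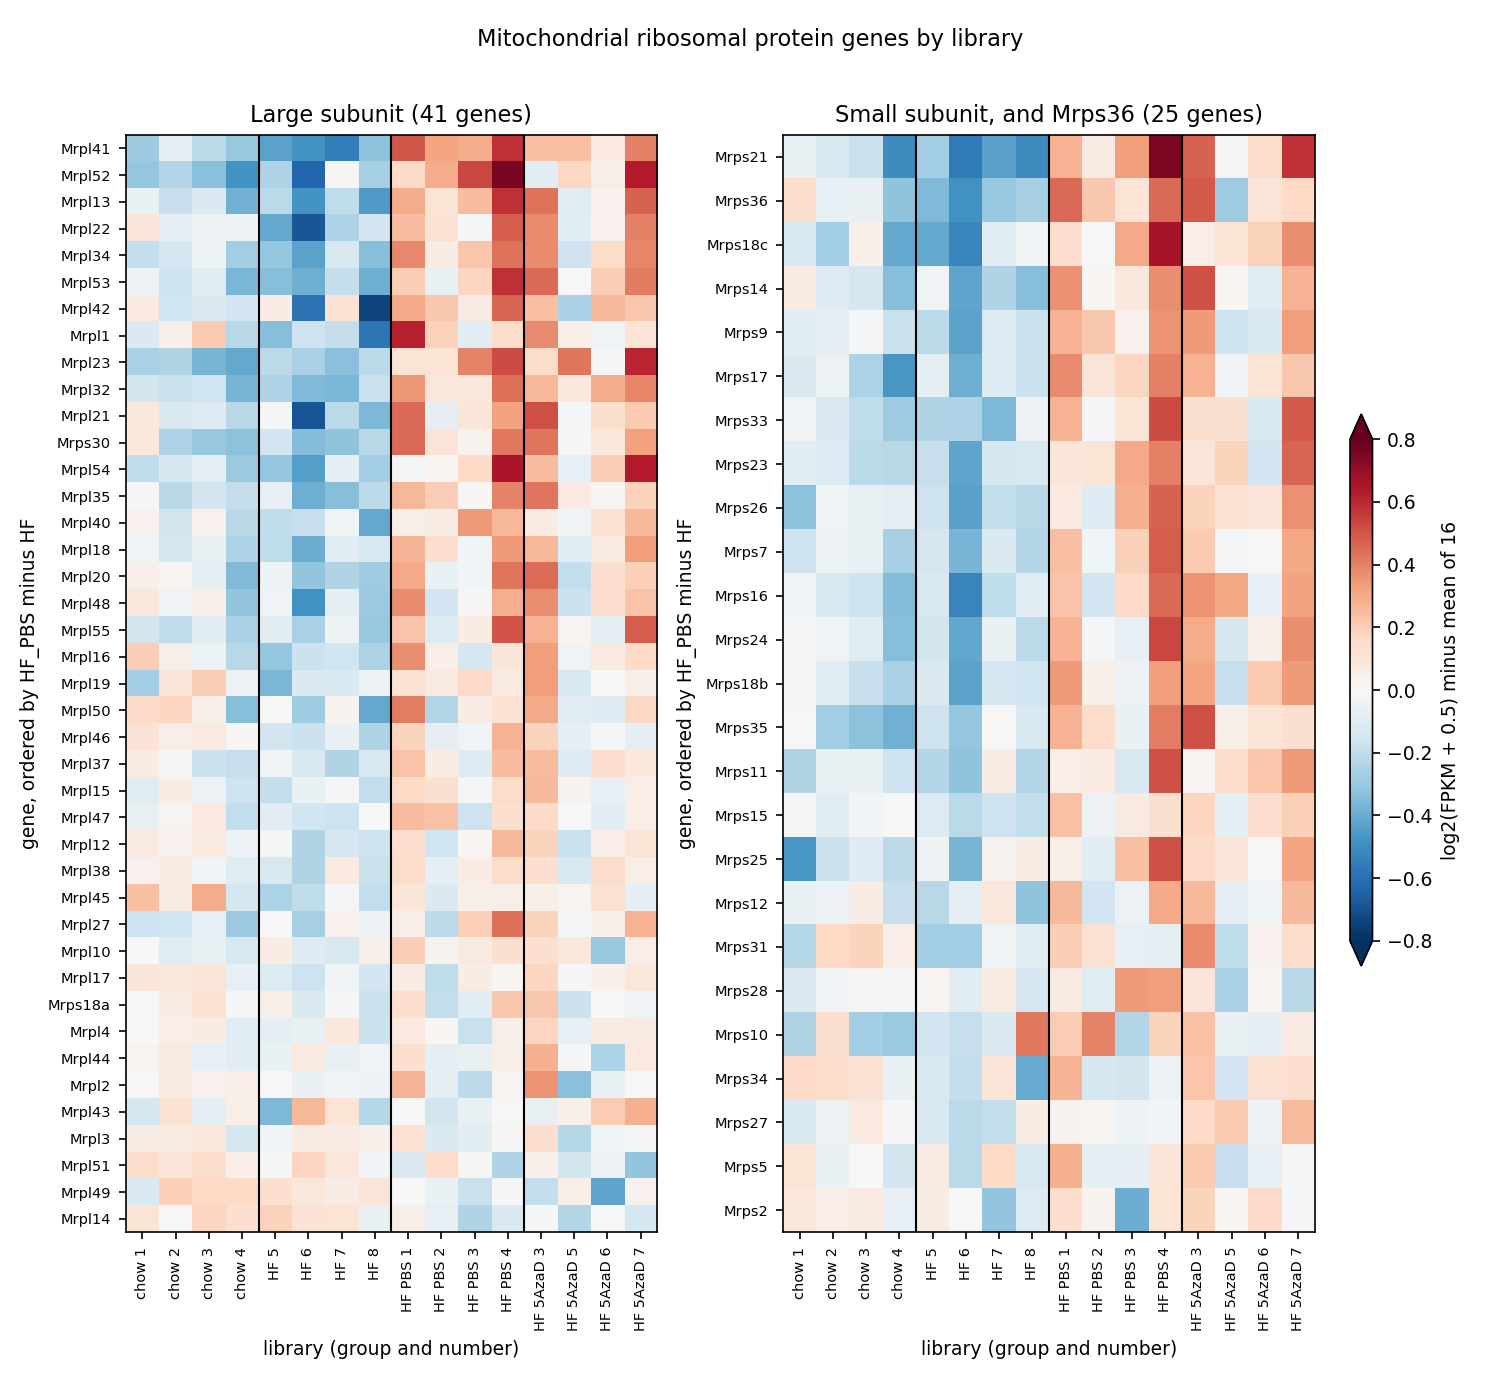
Each row is a gene and each column a library; colour gives log2(FPKM + 0.5) minus the gene's mean over the 16 libraries. Large-subunit genes are on the left, small-subunit genes and Mrps36 on the right, ordered by the difference between HF_PBS and HF. The columns HF_PBS 1, HF_PBS 4, HF_5AzaD 3 and HF_5AzaD 7 are red in most rows, with 57 to 62 of 66 genes above their mean. The other injected columns have 25 to 42 such genes. All chow and HF columns are blue in most rows, with 7 to 27 such genes, the fewest in HF 6, HF 8 and chow 4.

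Libraries of 1 group also differed in the level of the whole family. A score, the mean over the 66 genes of the log2 deviation from each gene's own mean, was -0.04, -0.04, -0.04 and -0.19 in chow and -0.14, -0.27, -0.10 and -0.19 in HF. It was 0.21, 0.02, 0.05 and 0.29 in HF_PBS and 0.24, -0.03, 0.04 and 0.21 in HF_5AzaD. Only HF_PBS 1 and 4 and HF_5AzaD 3 and 7 were clearly above 0, with 57 to 62 of 66 genes above their own mean. HF_PBS 2 and 3 and HF_5AzaD 5 and 6 had 25 to 42 genes above their mean, and chow and HF libraries 7 to 27. HF_5AzaD 5 and chow 1 to 3 nearly met, at -0.03 and -0.04. Summed over the 68 genes, the level was 1883 to 2094 FPKM in chow, 1792 to 2015 FPKM in HF, 2143 to 2764 FPKM in HF_PBS and 2114 to 2574 FPKM in HF_5AzaD, so in this sum the injected libraries all lay above the uninjected ones. The same score over all loci tested stayed between -0.03 and 0.03 in every library.

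These library differences were set beside the markers, whose part in them was not tested. The HF_PBS libraries 1 to 4 had scores of 0.21, 0.02, 0.05 and 0.29, striatal marker sums of 196, 612, 717 and 875 FPKM and myelin marker sums of 5189, 3159, 11885 and 12913 FPKM. HF_PBS 4 was thus highest in the score, in the myelin sum and, within its group, in the striatal sum, while HF_PBS 1 had a high score with both sums within the range of the chow libraries. No HF_5AzaD library was among those high in either marker list. Without the 4 libraries high in striatal markers, 12 genes rose from HF to HF_5AzaD (18 with them) and 4.36% of all loci did. From chow to HF_5AzaD 9 rose, as many as with them, and 8.01% of all loci did, and the median log2 differences were 0.32 and 0.19. Without them HF_PBS keeps only library 1, which is assumed to vary like the other groups; then 0 genes of the family passed limma's test against HF or chow, and 0% of all loci rose, with family medians of 0.37 and 0.30. Without the 2 libraries high in myelin markers, 2 genes rose from HF to HF_PBS and 1 from chow to HF_PBS, where 0.742% and 0.182% of all loci rose, with family medians of 0.28 and 0.21. In the same fit 22 rose from HF and 16 from chow to HF_5AzaD, where 8.35% and 9.40% of all loci rose. Mrpl41 stayed called in HF_PBS without the myelin-high libraries, and without the striatal-high libraries its log2 difference was 0.98 from HF and 0.72 from chow (limma adjusted p = 0.0999 and 0.211). For Mrps21 the differences from HF and chow were 0.70 and 0.49 without the striatal-high libraries and 0.62 and 0.39 without the myelin-high ones, and none passed (limma adjusted p = 0.0631 to 0.304). For Mrpl52 they were 0.44 and 0.49, and 0.51 and 0.57, and none passed (limma adjusted p = 0.111 to 0.411). The HF_PBS calls of Mrpl13 against HF and chow were lost as well, at 0.60 and 0.48 without the striatal-high libraries and 0.54 and 0.39 without the myelin-high ones (limma adjusted p = 0.0803 to 0.304). So were those of Mrpl23 against chow, at 0.43 in both fits (limma adjusted p = 0.303 and 0.103), and of Mrps36 against HF, at 0.83 and 0.69 (limma adjusted p = 0.176 and 0.0590). The HF_5AzaD calls of Mrpl13 against HF and Mrpl52 against chow were lost without the striatal-high libraries (limma adjusted p = 0.0555 and 0.0523). The counts of the other gene lists were not recomputed without these libraries. The neuronal marker sum was 3347 to 4033 FPKM in chow and 2128 to 3255 FPKM in HF. It was 1346 to 3810 FPKM in HF_PBS and 2004 to 4098 FPKM in HF_5AzaD. Snap25 made up most of the mean sum, with means of 2401, 1559, 1587 and 1946 FPKM in that order of groups. Against chow, 2 of the 6 neuronal markers had log2 differences above 0 and 4 below 0, both in HF and in HF_PBS. In HF_5AzaD all 6 were below 0 against chow, with a median of -0.34, and none passed limma's test. From chow to HF_PBS 1 of the 6 fell past the test, where 15.7% of all loci fell. Of 5 tested astrocyte markers, 2 rose from chow and 1 from HF to HF_PBS, where 12.4% and 10.7% of all loci rose. Gfap, the astrocyte filament gene, averaged 87.5 ± 6.68 FPKM in chow and 128 ± 27.7 FPKM in HF (SD, n = 4 libraries). In HF_PBS and HF_5AzaD it averaged 196 ± 54.7 and 121 ± 46.4 FPKM. The log2 differences of the 5 astrocyte markers from chow to HF_PBS ran from -0.01 to 1.11, with 4 above 0 and 1 below. The astrocyte marker sum was 1670 to 2100 FPKM in chow, 1509 to 2511 FPKM in HF, 1849 to 2739 FPKM in HF_PBS and 1985 to 2070 FPKM in HF_5AzaD. Of 6 microglial markers, 1 rose from chow in HF_PBS and 1 in HF_5AzaD, where 12.4% and 7.18% of all loci rose. Of 6 oligodendrocyte markers, 1 rose from HF and 1 from chow to HF_PBS, where 10.7% and 12.4% of all loci rose. All 6 had log2 differences above 0 in both comparisons, with medians of 0.88 and 0.78. In HF_5AzaD, 2 of the 6 were above 0 against HF and 0 against chow, with medians of -0.13 and -0.15. In lists this small, 1 call cannot be told from the share of all loci. The part of these cell types in the results was not tested.

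Single libraries also set how many genes passed. The shares of all loci that rose in these fits are not given here, so the counts do not show whether a loss was particular to the family. From HF to HF_PBS the count of 29 became 13 without HF 6 and 13 without HF_PBS 4. From chow to HF_PBS the count of 17 became 5 without chow 4, 5 without HF_PBS 4 and 11 without chow 3. From HF to HF_5AzaD the count of 18 became 3 without HF 6, 3 without HF_5AzaD 7, 5 without HF_5AzaD 3 and 11 without HF 8. From chow to HF_5AzaD the count of 9 became 3 to 5 without any 1 chow library, HF_5AzaD 3 or HF_5AzaD 7, and 15 without HF_5AzaD 6. The median log2 differences moved less: 0.27 to 0.39, 0.18 to 0.28, 0.25 to 0.37 and 0.14 to 0.28 in the same order.

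The remaining genes of mitochondrial translation and its supply were read from lists of known genes. The 6 mitochondrial ribosomal proteins whose genes carry other names were counted first: 5 of 6 rose from HF to HF_PBS, 4 from HF to HF_5AzaD, 3 from chow to HF_PBS and 2 from chow to HF_5AzaD. For this and the following lists, the shares of all loci that rose were 10.7%, 6.61%, 12.4% and 7.18% in these 4 comparisons, and 13.2%, 7.64%, 15.7% and 9.11% fell. Aurkaip1, a small-subunit protein, rose in all 4, from 54.8 ± 7.13 FPKM in HF to 76.0 ± 11.1 FPKM in HF_PBS (SD, n = 4 libraries; log2 difference 0.47, limma adjusted p = 0.0141). Ptcd3, an RNA-binding protein of the small subunit, rose over HF by 0.43 and 0.45 in HF_PBS and HF_5AzaD (limma adjusted p = 0.00906 and 0.0148). The GTP-binding small-subunit protein Dap3 was the only one of the 6 that passed in no comparison, with log2 differences of 0.21 to 0.31.

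The factors that work with the ribosome came next. Of 18 assembly factors, 3 rose and 2 fell from HF to HF_PBS, 3 rose and 1 fell from HF to HF_5AzaD, 3 rose and 3 fell from chow to HF_PBS, and 0 rose and 1 fell from chow to HF_5AzaD. Malsu1, which joins the large subunit late in its assembly, rose from 19.4 ± 2.47 FPKM in HF to 28.0 ± 2.16 FPKM in HF_PBS (SD, n = 4 libraries; log2 difference 0.52, limma adjusted p = 0.00624). Trub2 and the helicase gene Dhx30 fell in the same comparison, by 0.44 and 0.35 on the log2 scale (limma adjusted p = 0.00502 and 0.00432). Of 10 translation factors, 1 rose from HF to HF_PBS and none passed in the other 3 comparisons by limma, where 2 genes each had an unadjusted p under 0.05. The elongation factor gene Tufm was at 38.3 ± 1.41, 35.4 ± 1.79, 37.4 ± 3.36 and 36.2 ± 3.98 FPKM (SD, n = 4 libraries) in chow, HF, HF_PBS and HF_5AzaD. Of 18 aminoacyl-tRNA synthetases, 1 rose and 3 fell from HF to HF_PBS, near the shares of all loci, with a median log2 difference of 0.02. Of 26 genes for mitochondrial DNA and RNA handling, 9 rose and 2 fell in that comparison. Tfam, which packages mitochondrial DNA, and Lrpprc, which stabilises mitochondrial mRNAs, rose by 0.40 and 0.49 (limma adjusted p = 0.0138 and 0.0165), Polg, the mitochondrial DNA polymerase, fell by 0.75 (limma adjusted p = 0.00392), and the RNA polymerase gene Polrmt differed by -0.14 and did not pass (limma adjusted p = 0.257).

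Of 11 regulators of mitochondrial biogenesis, 0 rose in any of the 4 comparisons, while 4 fell from HF to HF_PBS, 6 from chow to HF_PBS, 2 from HF to HF_5AzaD and 5 from chow to HF_5AzaD, where 13.2%, 15.7%, 7.64% and 9.11% of all loci fell. Ppargc1a, the PGC-1α coactivator gene, was at 10.0 ± 0.551, 8.24 ± 2.51, 6.48 ± 1.37 and 6.40 ± 1.54 FPKM (SD, n = 4 libraries) in chow, HF, HF_PBS and HF_5AzaD. It fell from chow by 0.62 in HF_PBS and 0.64 in HF_5AzaD (limma adjusted p = 0.0301 and 0.0396). Yy1 fell in all 4, from 29.2 ± 3.00 FPKM in HF to 20.7 ± 2.19 FPKM in HF_PBS (SD, n = 4 libraries; log2 difference -0.49, limma adjusted p = 0.00397). Hcfc1, a coregulator gene, fell in all 4 as well, from 3.31 ± 1.81 FPKM in HF to 0.623 ± 0.118 FPKM in HF_PBS (SD, n = 4 libraries; log2 difference -1.66, limma adjusted p = 0.00291). Nrf1 and Gabpa, which encode a factor and a factor subunit known to act at promoters of this family, did not pass in any, with log2 differences of -0.22 to -0.18 and 0.22 to 0.34.

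Genes whose products the mitochondrial ribosome serves or resembles were counted in the same way. Of 78 nuclear genes of the respiratory chain and ATP synthase, 35 rose and 1 fell from HF to HF_PBS, 24 rose and 1 fell from HF to HF_5AzaD, 18 rose and 3 fell from chow to HF_PBS, and 9 rose and 3 fell from chow to HF_5AzaD. Of 62 tested cytosolic ribosomal protein genes, 32, 19, 40 and 28 rose in the same order and 0 fell. Of all loci 10.7%, 6.61%, 12.4% and 7.18% rose in that order. By library, the cytosolic score was highest in HF_5AzaD 7, HF_PBS 4 and HF_PBS 3 (0.65, 0.60 and 0.49), and the respiratory chain score in HF_PBS 4, HF_5AzaD 3, HF_5AzaD 7 and HF_PBS 1 (0.42, 0.31, 0.29 and 0.27), the same 4 libraries as for the mitochondrial ribosomal genes. HF_PBS 3 was thus high for the cytosolic and near 0 for the mitochondrial ribosomal genes. Many cytosolic ribosomal genes have near-identical pseudogene copies, so their levels are less certain.

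**Figure D4:**
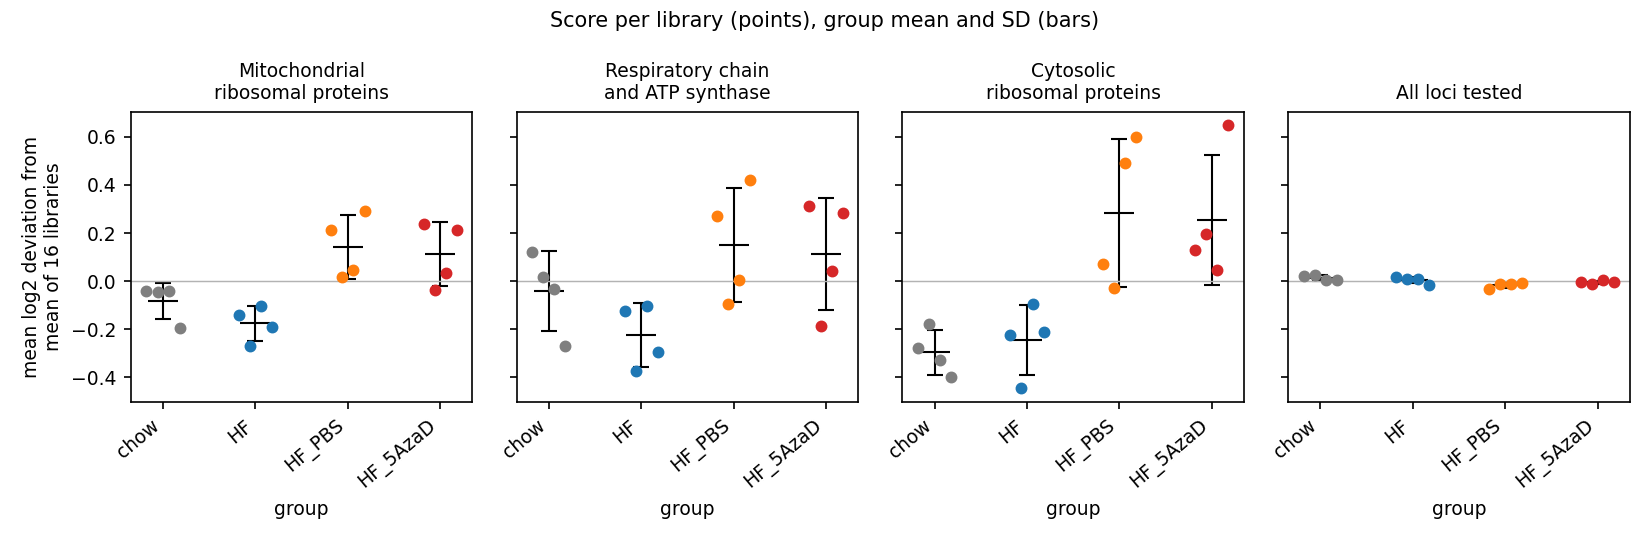
Mean log2 deviation from the mean of the 16 libraries, for the 66 mitochondrial ribosomal protein genes, 78 nuclear respiratory chain and ATP synthase genes, 62 cytosolic ribosomal protein genes and all loci tested; points are libraries, bars the group mean and SD (n = 4 libraries). The all-loci score stays between -0.03 and 0.03, and the mitochondrial ribosomal score reaches 0.29 in HF_PBS and -0.27 in HF.

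The promoters of the family were searched because many members moved together and their regulators are partly known. RefSeq promoter windows of assembly GRCr8 (250 bases before to 50 after the annotated start) were given for 54 of the 68 genes, and 14 had none. Motif letters were matched exactly on both strands. The NRF1 core GCGCATGC stood in 5 of the 54 genes (9.26%), against 2.47% of the 33469 windows in the table. The ETS core CCGGAAG, bound by the factor of which Gabpa is a subunit, stood in 18 (33.3%, against 8.75%), and the YY1 core AAGATGGC in 14 (25.9%, against 3.17%). The SP1 core GGGCGG stood in 28 (51.9%, against 33.1%) and TATAAA in 8 (14.8%, against 14.2%). Over the whole window the family was thus richer in the NRF1, ETS and YY1 letters than the table as a whole, as a description with no test. Wholly before the annotated start, the matches stood in 5, 10 and 3 genes, so most YY1 matches lay at or after the start. The table was not counted for this part of the window, and its shares count windows where the family's count genes. Between the 27 tested genes with a window that rose in at least 1 comparison and the 25 that rose in none, the counts were 3 and 2 for NRF1, 8 and 8 for ETS, 6 and 7 for YY1, 16 and 11 for SP1, and 4 and 4 for TATAAA.

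The 120 bases before the start are shown for 3 genes that rose in all 4 comparisons (Mrpl32, Mrpl23 and Mrpl53), for Mrpl22, which rose against HF only, and for 2 genes that rose in none (Mrpl17 and Mrpl27), because the same letters occur in both kinds. Capitals mark NRF1, ETS or YY1 matches, and each sequence reads 5′ to 3′ on the gene's strand of GRCr8.
Mrpl32, chr17:55260531-55260650, plus strand: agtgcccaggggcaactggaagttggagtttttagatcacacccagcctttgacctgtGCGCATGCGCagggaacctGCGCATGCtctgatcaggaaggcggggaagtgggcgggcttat
Mrpl23, chr1:207116810-207116929, plus strand: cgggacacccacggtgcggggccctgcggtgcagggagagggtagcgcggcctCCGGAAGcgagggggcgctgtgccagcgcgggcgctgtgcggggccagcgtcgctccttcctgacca
Mrpl53, chr4:117172923-117173042, plus strand: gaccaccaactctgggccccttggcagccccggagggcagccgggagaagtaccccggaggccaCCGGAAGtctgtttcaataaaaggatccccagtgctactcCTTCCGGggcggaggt
Mrpl22, chr10:42845790-42845909, plus strand: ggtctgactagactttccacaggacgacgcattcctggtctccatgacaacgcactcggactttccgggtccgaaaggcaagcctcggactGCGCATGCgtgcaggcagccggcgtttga
Mrpl17, chr1:169575700-169575819, minus strand: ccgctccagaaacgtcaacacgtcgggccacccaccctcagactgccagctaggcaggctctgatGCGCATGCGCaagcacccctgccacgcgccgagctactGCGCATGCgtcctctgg
Mrpl27, chr10:80092225-80092344, plus strand: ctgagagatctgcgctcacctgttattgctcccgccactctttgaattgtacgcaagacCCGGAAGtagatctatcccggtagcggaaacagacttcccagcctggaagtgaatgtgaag
Mrpl22 holds 1 NRF1 match. Mrpl32 holds a pair of overlapping NRF1 matches and a separate one in this stretch, and Mrpl17 has the same arrangement. Mrpl17 was at 72.2 ± 4.06, 64.2 ± 2.88, 68.7 ± 5.77 and 73.1 ± 4.01 FPKM (SD, n = 4 libraries) in chow, HF, HF_PBS and HF_5AzaD, with log2 differences of -0.07 to 0.19 between injected and uninjected groups that did not pass. Mrpl53 holds an ETS match on each strand, while Mrpl23 and Mrpl27 each hold 1 on the forward strand. Mrpl27 was at 65.4 ± 4.30, 70.5 ± 6.33, 81.0 ± 15.3 and 80.5 ± 7.59 FPKM in the same order of groups, and its differences of 0.18 to 0.29 did not pass (limma adjusted p = 0.0868 to 0.300). A match is a description of letters and not of binding.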

How the data were processed

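Poly-A RNA from frontal cortex was sequenced in 16 libraries, 4 in each of 4 groups. The deposited values are FPKM per locus for each library, made by the authors; the submitters' processing notes list Cuffdiff, Cufflinks, Bowtie, Bowtie2, TopHat and TopHat2 beside the build rn5, without versions or roles. Strand, read totals and coordinates are not given in the sources used here, and the depth of each value is therefore unknown apart from a relative estimate.

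Of 28168 loci, the 14824 with a mean of at least 1 FPKM and the deposited status OK in all 16 libraries were tested (161 loci were not OK, 136 of them past the level filter). Values were taken as log2(FPKM + 0.5) and fitted with limma 3.58.1 (R 4.3.3, with a trend) on 4 group means over all 16 libraries, with Benjamini-Hochberg adjustment over all loci in each of the 6 contrasts and a threshold of 0.05. The script was tested on simulated data. Promoters came from RefSeq. Python 3.11.15 with numpy 2.4.6, pandas 2.3.3, scipy 1.17.1 and matplotlib 3.10.9 did the rest.

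Genes named are, in each comparison, up to 5 called members per direction with the largest difference and no overlap of groups, or, with none called, the 3 per direction with the lowest p; the 3 highest and 3 lowest members; members fixed for their role; and, from other lists, up to 3 called genes per direction plus fixed ones. The members and lists were chosen with earlier results of these data known. Alternatives were other pseudocounts, filters, scalings, fits on 2 groups, no trend, other status rules, each library left out, and a replicate block; those without merged loci or marker-high libraries were added after seeing the data.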

Additional observations from a re-analysis of the deposited data

Results flagged for a closer look

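In 120 groups of 4 libraries, 7 had 1 library whose distance to the nearest other exceeded 0.829 of the group's range, which chance gives in about 1 in 20 groups. Chow 4 was the low library in 4 of them. Its score over the 66 genes was -0.193 (others -0.045 to -0.042) and its sum over the family was 1883 FPKM (others 2083 to 2094 FPKM). In the same library Mrpl17 was at 66.1 FPKM (others 74.0 to 74.5 FPKM) and Mrpl32 at 13.4 FPKM (others 15.4 to 15.8 FPKM). Mrps18b was at 24.1 FPKM in HF 6 (others 29.2 to 30.1 FPKM). Mrps10 was high in chow 2, at 11.4 FPKM (others 8.41 to 8.76 FPKM), and in HF 8, at 14.1 FPKM (others 9.13 to 9.61 FPKM).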

How the results depend on the processing

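Under every alternative run, the median log2 difference of the 66 genes kept its direction in the 4 comparisons of injected with uninjected groups. The counts of genes called moved more. For most of them the share of all loci in the same fit is not given here, so they do not show whether a change was particular to the family. From HF to HF_5AzaD the count of 18 was 1 in a fit on the 2 groups only and 0 with the title numbers as a replicate block; the numbers did not pair the libraries (correlations of -0.164 to 0.0641, with 0 libraries closest to their own number), and the block gave 12 from chow to HF_PBS, where 17 were called without it. From chow to HF_5AzaD the count of 9 was 4 with no filter on low values, 14 after quantile normalization and 16 without the libraries high in myelin markers. From HF to HF_PBS the count of 29 was 15 in a fit on the 2 groups only, 0 without the libraries high in striatum markers and 2 without those high in myelin markers. From chow to HF_PBS the count of 17 was 0 and 1 without these libraries. Leaving out 1 library at a time gave 13 to 34, 5 to 21, 3 to 24 and 3 to 15 calls (HF_PBS against HF, HF_PBS against chow, HF_5AzaD against HF, HF_5AzaD against chow), with 0 to 0 in the 2 other comparisons. Median log2 differences then ran from 0.27 to 0.39, 0.18 to 0.28, 0.25 to 0.37 and 0.14 to 0.28, from -0.12 to -0.07 for HF against chow and from -0.07 to 0.04 for HF_5AzaD against HF_PBS. Centring each library on its median gave 35, 22, 22 and 10 calls, and turned the split over all loci from 1580 higher and 1956 lower to 2003 and 1649 for HF_PBS against HF. Of 649 values of named genes, 590 kept their direction and side of the threshold, 58 lost the call and 1 reversed: Mrpl52 between HF_5AzaD and HF_PBS, at 0.036 without the libraries high in striatum markers. Of 20 called values, 11 stayed called under every alternative other than the 3 added after seeing the data, and 3 under those as well, those of Mrpl23, Mrpl32 and Mrpl41 in HF_5AzaD against chow. The cause of these changes was not tested. The planned adjustment for transcript length was not run, since no lengths were used here.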
